A study of Homo sapiens with 6 samples.

Results

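The genes described here make, break down and move GABA, the main inhibitory transmitter of the brain. The set was fixed as a list of 6 genes, GAD1, GAD2, SLC32A1, SLC6A11, SLC6A13 and ABAT, out of 20033 protein-coding genes on chromosomes 1 to 22, X and Y. For each gene, every deposited peak that touched the gene body or the 5 kb beyond either end was taken. Occupancy of the transcription factor MYT1L had been profiled by CUT&RUN, in which an antibody tethers a nuclease that releases the DNA around its target for sequencing. All 6 libraries came from wild-type H1, an established line of human embryonic stem cells, at passages 10 to 60 and at day 30. They comprised 4 libraries with a MYT1L antibody and 2 with non-specific IgG, the measure of background. By the design text the profiled cells were cortical interneurons differentiated from H1, but the sample annotation for cell type gives embryonic stem cells. The files hold no expression, so neither description could be checked against expressed markers.

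GABA is formed from glutamate by glutamate decarboxylase, which exists as the products of GAD1 and GAD2. SLC32A1 encodes the transporter that loads GABA into synaptic vesicles, SLC6A11 and SLC6A13 encode transporters that return it across the plasma membrane, and ABAT encodes the mitochondrial transaminase that degrades it. GAD1, GAD2 and SLC32A1 are standard markers of inhibitory neurons. MYT1L is a zinc-finger protein of the nervous system known for repressing non-neuronal genes during neuronal differentiation, and proteins of its family bind a core of the letters AAGTT.

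Peaks at these genes were mostly weak and rarely shared between libraries. The MYT1L lists held 17 peaks at 5 of the 6 genes, and SLC6A13 had none. The IgG lists held no peak at any of them. Over all protein-coding genes, 84.1% had a MYT1L peak in at least 1 library and 4.16% an IgG peak. Both counts of member genes were close to these shares. The 17 peaks formed 14 regions (sets of peaks connected by at least 1 shared base), of which 12 were seen in 1 MYT1L library, 1 in 2 and 1 in 3. Regions of 1 library were thus 85.7% of the members' regions, against 58.1% of the 49028 regions over the genome. A region with peaks in at least 3 of the 4 MYT1L libraries is called reproducible here. The only such region lay at the start of SLC6A11, and no region at these genes had a peak in all 4.

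The sequences before 4 of the gene starts are shown because they span the range of what was seen. SLC6A11 had the reproducible region, GAD1 and GAD2 had peaks of 2 libraries, and SLC6A13 had no peak. Each is the 250 bases before a RefSeq start of build GRCh38.p14, read 5′ to 3′ along the gene, with any AAGTT (on either strand) in capitals. They lie at chr3:10815978-10816227 on the plus strand for SLC6A11, chr2:170816637-170816886 on the plus strand for GAD1, chr10:26216122-26216371 on the plus strand for GAD2 and chr12:262837-263086 on the minus strand for SLC6A13.
SLC6A11: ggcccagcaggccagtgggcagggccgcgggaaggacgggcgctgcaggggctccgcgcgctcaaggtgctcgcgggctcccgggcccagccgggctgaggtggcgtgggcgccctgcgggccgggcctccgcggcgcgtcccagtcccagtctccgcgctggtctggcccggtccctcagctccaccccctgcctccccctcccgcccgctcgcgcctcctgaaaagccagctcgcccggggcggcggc
GAD1: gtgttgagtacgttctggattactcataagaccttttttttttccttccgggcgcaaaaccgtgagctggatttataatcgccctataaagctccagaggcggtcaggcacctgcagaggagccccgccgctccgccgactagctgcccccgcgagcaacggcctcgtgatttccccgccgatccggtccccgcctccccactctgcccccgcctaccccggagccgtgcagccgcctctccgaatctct
GAD2: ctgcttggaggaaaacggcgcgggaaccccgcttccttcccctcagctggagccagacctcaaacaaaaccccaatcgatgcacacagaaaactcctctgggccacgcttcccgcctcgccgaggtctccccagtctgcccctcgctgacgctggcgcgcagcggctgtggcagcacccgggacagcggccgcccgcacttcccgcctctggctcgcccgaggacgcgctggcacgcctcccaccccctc
SLC6A13: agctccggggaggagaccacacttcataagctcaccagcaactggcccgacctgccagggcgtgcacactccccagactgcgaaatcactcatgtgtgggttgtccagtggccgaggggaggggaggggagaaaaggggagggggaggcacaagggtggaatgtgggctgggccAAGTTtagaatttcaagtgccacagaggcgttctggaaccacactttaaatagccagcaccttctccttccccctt

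Only the SLC6A13 stretch holds the core, with its first base 76 bases before the start. The members had 10 listed start windows of 300 bases (250 before to 50 after a start), and 8 of them were overlapped by a MYT1L peak. Over all 35116 windows the overlapped share was 45.1%. The 8 were not separate, since a single replicate 4 peak overlapped both GAD2 windows and another overlapped 2 ABAT windows. Of these 8 windows, 7 held no AAGTT. The exception was an internal ABAT start at 8712837, with the first base of the match 148 bases before it. The peak that overlapped this window began only at 8712823, so the match lay outside the peak. None of the 10 windows held the longer AAAGTTT, which contains AAGTT. Over all 35116 windows of the table, 34% held AAGTT and 4.28% held AAAGTTT, counting both strands. Only the start windows were searched. The sequence of peaks, or parts of peaks, outside them was not examined, so whether it holds the core is not known. A match of letters is a description and says nothing of whether a site is bound.

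The deposited values of each peak need some explanation. The fold is the ratio of fragments at the summit, the highest point of a peak, to the local background, with 1 added to both. The −log10 q grades how unlikely the summit is under that background after adjustment for multiple testing. From the fold and p of each peak a whole number of fragments over the summit and a background were recovered, under the formulas of the caller MACS2. The genome-wide background was 1.18, 0.421, 1.05 and 0.894 fragments per base in MYT1L replicates 1 to 4. It was 0.329 and 0.190 in IgG replicates 1 and 2, so the controls were the shallowest libraries. At this background a summit needed 7, 5, 7 and 6 fragments to enter the 4 MYT1L lists, and 5 and 4 to enter the IgG lists. The lists held 12310 to 30086 peaks with MYT1L and 976 and 998 with IgG.

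**Figure D1:**
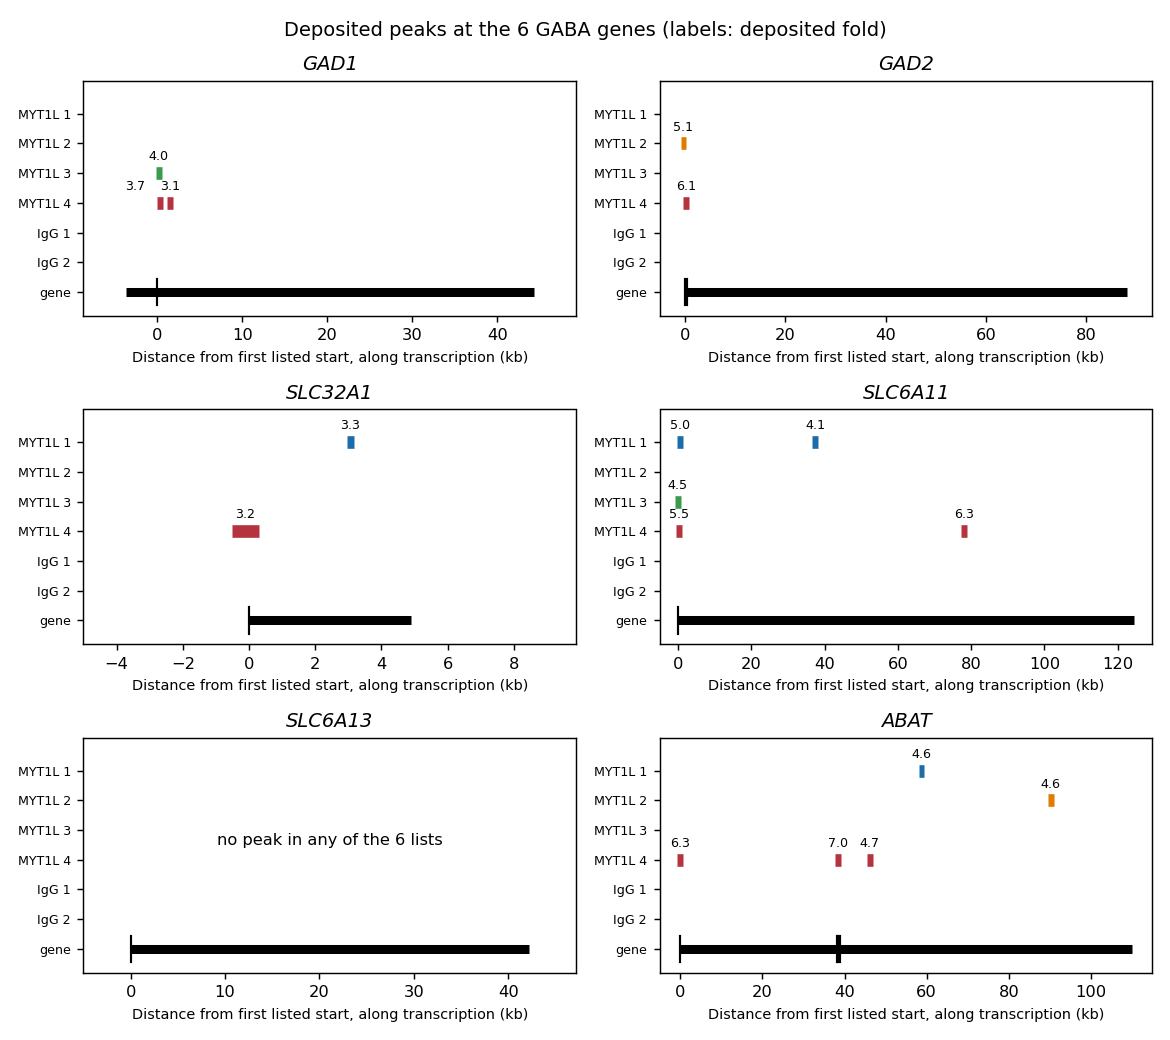
Deposited peaks at the 6 genes, with 1 panel per gene and 1 row per library. The horizontal axis is the distance from the first listed start in kb along transcription, coloured bars are peaks (drawn at a minimum width so that narrow ones are visible) with the fold beside them, the black bar is the gene body and vertical ticks are listed starts. The 17 peaks all lie in MYT1L rows, 9 of them in that of replicate 4, and SLC6A13 has none.

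Among the synthesis genes, GAD1 (chromosome 2, 170813210 to 170861151) had 0, 0, 1 and 2 peaks in MYT1L replicates 1 to 4 and none with IgG. The replicate 4 peak at 170816848 to 170817519 had a fold of 3.66 and a −log10 q of 4.86, with its summit 313 bp after the listed start. The replicate 3 peak at 170816935 to 170817142 had a fold of 4.02 and a −log10 q of 3.04, with its summit 125 bp after that start. These peaks shared 208 bp, their summits were 188 bp apart, and their mean fold was 3.84 ± 0.252 (SD, n = 2). A second replicate 4 peak, at 170818236 to 170818523, had a fold of 3.10 and a summit 1420 bp after the start. All 3 peaks were inside the gene body and also inside GAD1-AS1, a noncoding gene (170814623 to 170818651), so the lists do not assign them to one or the other. Replicates 1 and 2 had no peak anywhere in the GAD1 window.

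GAD2 (chromosome 10, 26216372 to 26304558) had 0, 1, 0 and 1 peaks in MYT1L replicates 1 to 4. The replicate 2 peak at 26216009 to 26216199 had a fold of 5.14 and a −log10 q of 4.10. The replicate 4 peak at 26216331 to 26216757 had a fold of 6.1 and a −log10 q of 10.4, the second highest among the 17. Both lay at the 5′ end, but 131 bp separated them and their summits were 578 bp apart, so they counted as 2 regions of 1 library each. GAD2 has 2 listed starts, at 26216372 and 26216774, and the replicate 4 peak touched the start windows of both. The end of MYO3A, an unconventional myosin gene, lay 3.48 kb from the replicate 2 peak. No list had a peak in the rest of the 88.2 kb body of GAD2.

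The vesicular transporter gene SLC32A1 (chromosome 20, 38724486 to 38729372), the shortest member at 4.89 kb, had 1, 0, 0 and 1 peaks in the MYT1L replicates. The replicate 4 peak, 804 bp wide and spanning the start from 38723974 to 38724777, had a fold of 3.24 and a −log10 q of 3.73. The replicate 1 peak at 38727441 to 38727666 had a fold of 3.27 and a −log10 q of 3.55 and lay 2663 bp further on, inside the body. The libraries that had a peak at this gene therefore did not place it at the same position.

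SLC6A11 (chromosome 3, 10816228 to 10940714), the longest member at 124 kb, had 2, 0, 1 and 2 peaks. At its start, the summit lay 3 bp before the start in replicate 3 (fold 4.48, −log10 q 3.69), 38 bp after it in replicate 4 (fold 5.52, −log10 q 6.24) and 530 bp after it in replicate 1 (fold 4.97, −log10 q 5.03). Together they formed the region at 10816065 to 10816881, with a mean fold of 4.99 ± 0.521 (SD, n = 3) and no IgG peak. The region was held together by replicate 4. Its peak shared 198 bp with that of replicate 3 but 51 bp with that of replicate 1, and the peaks of replicates 1 and 3 were 337 bp apart. Such chaining was found in 977 of 12299 reproducible regions (7.94%), the others having a direct overlap between every pair of their libraries. Joining peaks only where summits lay within 200 bp, or leaving out replicate 4, left no reproducible region at any of the 6 genes. The other SLC6A11 peaks were single, at 10853535 to 10853731 in replicate 1 (fold 4.11) and at 10894061 to 10894349 in replicate 4 (fold 6.33), 37361 and 77921 bp after the start.

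SLC6A13 (chromosome 12, 220622 to 262836) was the member without a peak in any list. Its nearest reproducible region was 126 kb away, from 389107 to 389720, and its nearest IgG peak 127 kb away. SLC6A12, the neighbouring gene for the betaine and GABA transporter, had 2 MYT1L peaks, 1 in replicate 1 (fold 3.38) and 1 in replicate 4 (fold 3.28), that did not overlap. An empty list shows only that no summit passed the threshold, which at genome-wide background leaves undetected any summit below 5 to 7 fragments.

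The catabolic gene ABAT (chromosome 16, 8674617 to 8784570) had 1, 1, 0 and 3 peaks, each in a region of its own. In replicate 4 the peak at 8674189 to 8674792, at the first start, had a fold of 6.27 and a −log10 q of 9.55. The replicate 4 peak at 8712823 to 8713130 had a fold of 7.01 and a −log10 q of 10.8, the highest of all 17, with its summit 51 bp after an internal start at 8712949. The third replicate 4 peak, at 8720554 to 8720925, had a fold of 4.74. Replicate 1 had a peak at 8733138 to 8733567 (fold 4.58) and replicate 2 at 8764656 to 8764885 (fold 4.60), and neither was near a listed start. The strongest ABAT peaks were thus at starts but were seen in 1 library each.

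**Figure D2:**
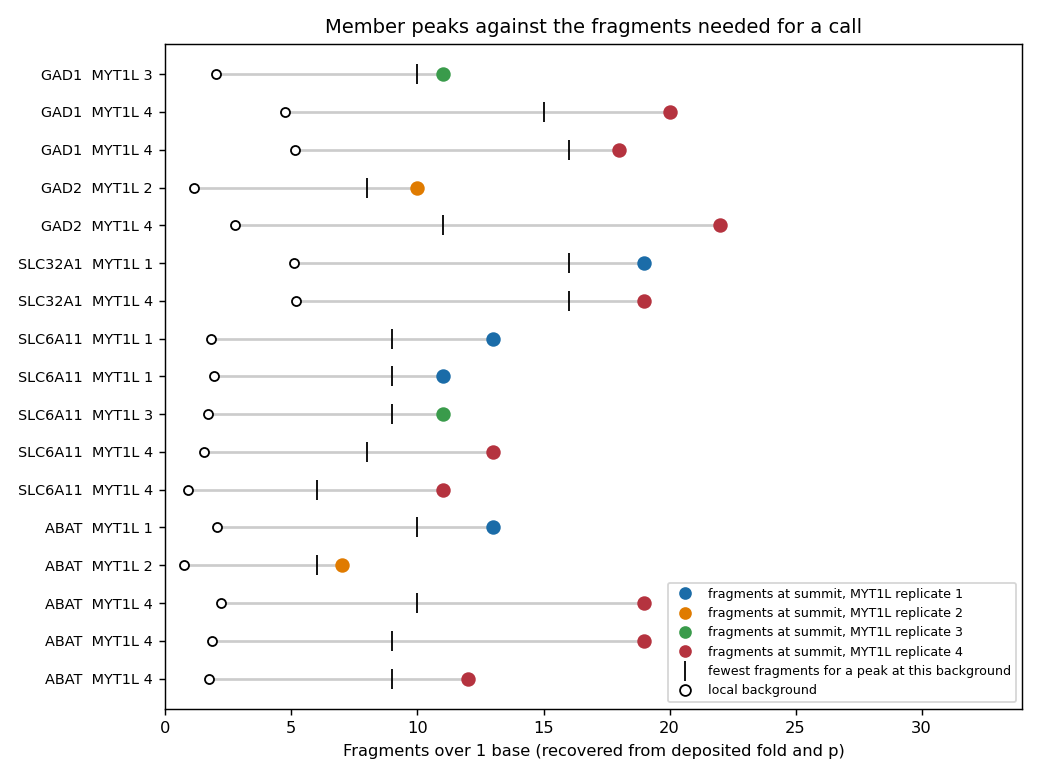
Fragments over the summit of each of the 17 member peaks (filled points, coloured by library), with the local background (open points) and the fewest fragments that would have entered that library's list at that background (vertical ticks). The horizontal axis is in fragments over 1 base, recovered from the deposited fold and p. Summits lie 1 to 11 fragments above the tick, 10 of 17 by at most 3.

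Most of these peaks were close to the threshold of their lists. Summits held 7 to 22 fragments with a median of 13. The margin over the fewest fragments that would have been called at the same local background was 1 to 11, with a median of 3, and 10 of the 17 had a margin of at most 3. The widest margin, 11 fragments, was that of the GAD2 peak in replicate 4, with 22 fragments over a background of 2.77. The narrowest was 1 fragment, for the GAD1 peak in replicate 3 and the ABAT peak in replicate 2. Margins of the other peaks in these lists are not given here. Closeness to the threshold is therefore not shown to be particular to the members.

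Within their own lists, 14 of the 17 peaks had a −log10 q below the list's median and none had a −log10 q above more than 63.7% of its list. The 3 above the median were the GAD2 peak of replicate 4, stronger than 62.6% of that list, and the ABAT peaks at starts, stronger than 59.9% and 63.7%. In replicate 3 the 2 member peaks were stronger than 13.1% (GAD1) and 21.9% (SLC6A11) of the list. The median fold over the 17 peaks was 4.60, and list medians were 4.92, 5.56, 5.17 and 5.54 in MYT1L replicates 1 to 4. The member peaks of replicate 4 had a median fold of 5.52. In that list, peaks in regions of 1 library had a median fold of 4.72 and peaks in reproducible regions 7.66.

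**Figure D3:**
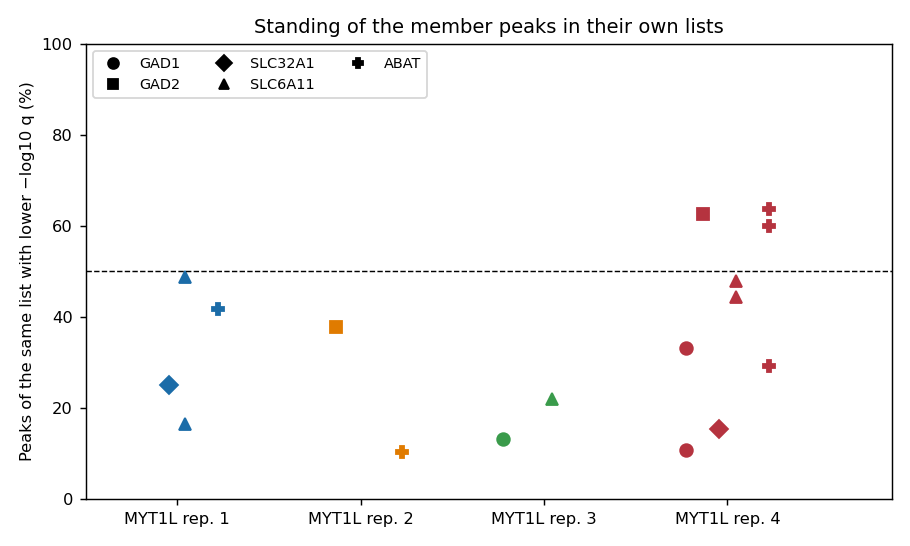
Standing of each member peak in its own list, as the percentage of peaks in that list with a lower −log10 q (vertical axis), by MYT1L replicate (horizontal axis) and gene (symbol). The dashed line is the median of each list; 14 of 17 points lie below it and the highest, of ABAT in replicate 4, is at 63.7%.

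The highest local backgrounds were at GAD1 and SLC32A1. At the replicate 4 peaks of GAD1 it was 4.74 and 5.14 fragments, 5.29 and 5.74 times the genome-wide value and above that of 92.8% and 94.3% of the peaks in the list. At the replicate 3 peak of GAD1 it was 1.99 fragments, 1.89 times the genome-wide value. At SLC32A1 it was 5.18 fragments in replicate 4 (5.79 times, above 94.4% of the list) and 5.11 in replicate 1 (4.31 times, above 94.7%). At SLC6A11 it was 0.895 to 1.92 fragments, 1 to 1.72 times the genome-wide value. The SLC32A1 summits, with 19 fragments each, were as high as the ABAT summits at starts in replicate 4, also 19 each, yet their folds were 3.24 and 3.27 against 6.27 and 7.01. Whether the caller took the local background from the same library or from a control is not given in the sources used here.

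The exact permutation test of peak numbers in 4 MYT1L against 2 IgG libraries, two-sided, cannot give a p below 0.133 for a single gene. The exact test gave p = 0.4 for SLC6A11 and for ABAT, each with 1.25 peaks per MYT1L library on average. The exact p was 0.8 for GAD1 (0.75 peaks), GAD2 (0.50) and SLC32A1 (0.50) and 1 for SLC6A13. Over the 6 genes, MYT1L replicates 1 to 4 had 4, 2, 2 and 9 peaks, a mean of 4.25 ± 3.30 (SD, n = 4), against 0 in both controls. MYT1L replicate 4, with the largest list, contributed 9 of the 17. The groups also differ in depth. Reduced binomially to the genome-wide background of IgG replicate 1, the 4 libraries were expected to keep 0.357, 1.15, 0.122 and 2.83 member peaks, 1.11 per library, against 0 observed in that control. When each of the 6 lists was reduced to its 976 strongest peaks, the size of the smallest, no library had a member peak. Nothing in the labels says that the libraries came from separate cultures, so the spread between them may be technical.

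The members were next set beside all protein-coding genes. Of the 6 genes, 5 had a MYT1L peak in at least 1 library, against 84.1% of all genes, a share close to that background. Peaks of at least 3 libraries anywhere in the window were found at 2 of 6, SLC6A11 and ABAT, against 56.8%. A region shared by at least 2 libraries was found at 2 of 6, GAD1 and SLC6A11, against 67.3%. A reproducible region was found at 1 of 6 against 50.3%, and against 51.1% of the 14312 genes within the members' range of lengths, 4.89 to 124 kb. No member had an IgG peak, which is close to the 4.16% of genes with one. With 6 genes, chosen with earlier results of these data known, no test of these shares was made, so the lower shares of shared regions are a description.

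**Figure D4:**
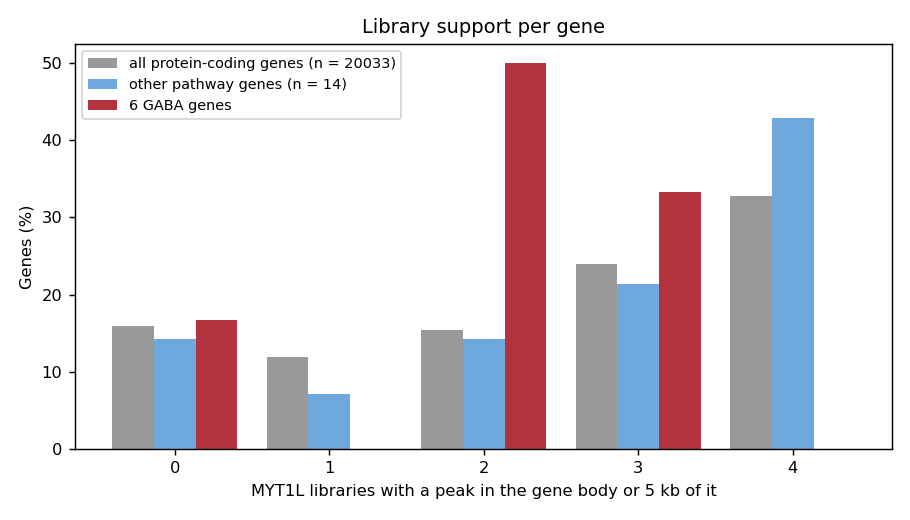
Percentage of genes (vertical axis, bars from 0) by the number of MYT1L libraries with a peak in the gene body or the 5 kb beyond its ends (horizontal axis), for all 20033 protein-coding genes, the 14 other genes of the pathway and the 6 GABA genes. Of the GABA genes 1 is at 0 libraries, 3 at 2 and 2 at 3, and none at 4, where 32.8% of all genes lie.

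The members had a median of 0.0986 peaks per 10 kb and MYT1L library, against 0.167 over all genes and 0.225 over 14 other genes of GABA and glutamine metabolism. Median gene length was 68.1 kb in the members, 24.1 kb over all genes and 23.8 kb in those other genes. This measure was not compared at matched length, so the lower value is not shown to be apart from length. Of those 14 genes, 12 had a MYT1L peak, 9 had a reproducible region (64.3%, against 50.3% of all genes) and none had an IgG peak. Breakdown of succinic semialdehyde, the product of ABAT, was represented by ALDH5A1, with peaks in all 4 libraries at its start (fold 7.33 ± 1.45, SD, n = 4), and by AKR7A2, with a region of 2 libraries. ALDH9A1, which makes GABA from an aldehyde, had a region of all 4 (6.81 ± 2.54, SD, n = 4). In the glutamine cycle, GLS2, which encodes a glutaminase, had a region of all 4 libraries (6.36 ± 1.77, SD, n = 4) and glutamine synthetase, GLUL, of 3 (6.52 ± 1.01, SD, n = 3). Among glutamine transporters, SLC38A1 had a region of 4 libraries and SLC38A3 of 3, SLC38A2 had peaks in replicate 4 alone, and SLC38A5 had none. PDXK, a kinase in the supply of the pyridoxal phosphate cofactor of the decarboxylases and of ABAT, had 2 reproducible regions. GADL1, a relative of the decarboxylases, had no peak.

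The strongest peak of the ALDH9A1 region had a −log10 q of 20.2 and that of ALDH5A1 19.3, compared with 10.8 for the strongest member peak. A difference in strength between the lists was not tested.

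Position and base composition were examined next. Of the 17 member peaks, 10 had a summit within 1 kb of a listed start, with a median fold of 5.05, and 7 did not, with a median of 4.58. These medians pool libraries of different depth, and their difference was not tested. The share of all peaks in the lists that lie near starts is not given here. A summit within 1 kb of a start was found in at least 1 library at 5 of 6 members, against 71.8% of the 15842 protein-coding genes with a listed start. It was found in at least 3 libraries at SLC6A11 alone, against 44.6%. Base composition of the start windows varied widely among the members. The first SLC6A11 window had 80% GC and 39 CG dinucleotides, ABAT's first start 76.3% and 32, SLC32A1 74.0% and 38, GAD1 61.7% and 29, and SLC6A13 57.0% and 6. The window without a peak at SLC6A13 had the fewest CG dinucleotides of the members' first starts.

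**Figure D5:**
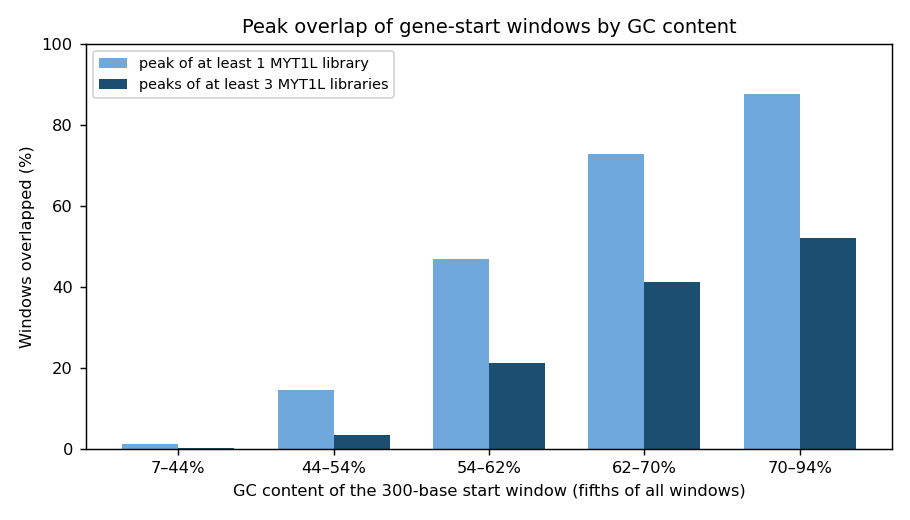
Percentage of all 35116 start windows of 300 bases that overlap a MYT1L peak of at least 1 library (light bars) or peaks of at least 3 libraries (dark bars), by GC content in 5 classes of near-equal number (horizontal axis). The share with at least 1 library climbs from 1.31% in the class lowest in GC to 87.7% in the highest.

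Over all windows, overlap with MYT1L peaks went with GC content. A peak of at least 1 library overlapped 1.31%, 14.6%, 47.0%, 72.9% and 87.7% of windows in 5 classes from low to high GC, and peaks of at least 3 libraries overlapped 0.117%, 3.38%, 21.1%, 41.2% and 52.2%. The windows of SLC6A11, SLC32A1 and the first ABAT start belonged to the highest class. They were overlapped by peaks of 2, 1 and 1 libraries, so none reached the 3 libraries found for 52.2% of that class. GAD1 and SLC6A13 belonged to the middle class, and both GAD2 windows to the class above it. The internal ABAT windows were lower in GC, 2 in the second lowest class (52.7% and 53.3% GC) and 1 in the lowest (43%). Both windows of the second lowest class, where 14.6% of all windows were overlapped, were overlapped by the ABAT peak of replicate 4 that had the highest −log10 q of the 17. AAGTT was less common in windows overlapped by at least 3 libraries (19.0%) than in those overlapped by none (44.2%), but it was also less common at high GC. Within the highest class the shares were 10.02% and 13.9%, and within the middle class 35.0% and 28.5%. Whether GC content has a part in where libraries gave peaks at the members was not tested.

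By the distance between highest folds in the 6 libraries, the genes most like SLC6A11 were TRIM4 (distance 0.0631) and PTGER3 (0.117), and those most like ABAT were IRF2 (0.278) and AMDHD1 (0.281). Such likeness is common, since 3193 other genes had peaks in the same libraries as SLC6A11, and 1072 in the same as ABAT. Beyond the windows, the nearest reproducible region was 12.9 kb from ABAT, 18.6 kb from SLC32A1, 41.7 kb from GAD1 and 87.2 kb from GAD2. The nearest IgG peak lay 127 kb from SLC6A13, 275 kb from GAD2 and 826 kb from GAD1, and it was farther still from the other 3.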

How the data were processed

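MYT1L and IgG occupancy was measured by CUT&RUN in 6 libraries, grouped by their titles. Peaks came from MACS2 on build hg38, per the submitters' processing notes; the aligner, threshold and control library are not given in the sources used here. Each deposited peak has a fold (a ratio), a −log10 p, a −log10 q and a score made by the authors per library, and the deposited score is 10 times the −log10 q, truncated, for at least 99.99% of peaks in each list. Depth is not stated; fragments at summits were recovered for at least 99.97% of peaks with a −log10 p up to 200, within 0.0002, assuming the formulas of the caller.

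Gene bodies and starts came from RefSeq GRCh38.p14. All 6 members matched a listed start; exons and introns were not assigned. Python 3.11.15, numpy 2.4.6, pandas 2.3.3 and scipy 1.17.1 were used, and bedtools 2.31.1 gave the same member counts in all 36 comparisons. Recovery of fragments, joining of regions and overlap counts were tested on simulated data. Members and gene lists were chosen with earlier results of these data known. All members are named whatever their values; other pathway genes come from a list of 14, all counted but some not reported singly here, and similar genes are the 2 closest in highest fold. Alternatives changed the threshold, window, overlap, number of libraries, depth and libraries used.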

Additional observations from a re-analysis of the deposited data

How the results depend on the processing

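The single reproducible region, at 1 gene, was lost (0 regions, 0 genes) with a −log10 q of at least 5, with the 12310 strongest peaks of each MYT1L list, with all 4 libraries required and with summits within 200 bp, settings under which 31.3%, 35.9%, 27.1% and 39.7% of all protein-coding genes had one. It was also lost with all 6 lists at 976 peaks, a setting chosen after seeing the data, under which 0.469% of all genes had one. With at least 2 libraries there were 2 regions at 2 genes (67.3% of all genes). Leaving out each library in turn gave 0 to 2 regions at 0 to 2 genes. There were 0 without MYT1L replicate 4 (51.4% of all genes), 2 without replicate 1 (57.6%) or 2 (65.3%) and 1 without replicate 3 (62%), with 2 of the 3 libraries left sufficing, and 1 without either IgG library. The cause was not tested. The excess of MYT1L over IgG peaks was 4.25 per library. Since both IgG libraries had 0 member peaks, the excess could not turn negative, and its direction is no sign of stability. Keeping peaks with −log10 q from 5 upward gave 1.5, and the 12310 strongest peaks of each MYT1L list beside whole IgG lists gave 1.25. It was 0 with all 6 lists at 976 peaks, 2.67 to 5 without one library and 1.11 at the depth of IgG replicate 1. As bases covered it was 1578 bp. With the replicate number as a block (numbers 1 and 2, which the groups share) it was 3. The labels do not say that a number marks a shared culture, and the MYT1L lists number their samples 1 higher than the titles do. The number of MYT1L libraries with a peak was counted as moved in 6 of 12 settings at GAD1, GAD2 and SLC32A1 each. It was counted so in 3 at SLC6A11 and ABAT each and in none at SLC6A13. A fall from 2 to 1 was counted as moved, but a fall from 3 to 2 was not. The lower counts at SLC6A11 and ABAT are therefore no sign of stability. The number fell from 3 to 2 at SLC6A11 without replicate 1, 3 or 4. At ABAT it did so without replicate 1, 2 or 4 and with 12310 peaks per MYT1L list. With 12310 peaks per MYT1L list the number went from 3 to 0 at SLC6A11 and from 2 to 0 at GAD1 and SLC32A1. At GAD2 it stayed at 2. With a −log10 q of at least 5 it went from 2 to 0 at GAD1 and SLC32A1, from 2 to 1 at GAD2, from 3 to 2 at SLC6A11 and from 3 to 1 at ABAT.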
